A study of Mus musculus with 4 samples.

Results

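Integrins and laminins were read across cultured mouse lung endothelial cells with and without knockdown of the glucocorticoid receptor (GR, gene Nr3c1). The group was taken by gene symbol alone, from the integrin alpha and beta subunits and the laminin alpha, beta and gamma chains in the expression table. It holds 36 of 23997 genes, made up of 18 integrin alpha subunits, 8 integrin beta subunits and 10 laminin chains. A gene was called expressed at 1 FPKM or more (a fragment count divided by transcript length and by library size). By that measure 21 of the 36 were expressed in at least 1 condition, 19 of them in every condition, and 15 in none.

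The cells were lung endothelial cells of C57BL/6 mice, grown in an endothelial basal medium (EBM-2) with 10% serum, and all of them received an siRNA for 48 h. They fell into 4 conditions: control siRNA; control siRNA plus 100 nM dexamethasone (DEX, a drug that activates GR) during 18 h; GR siRNA; and GR siRNA with the same DEX treatment. The submitters describe 3 replicates of each condition, but the table holds 1 column per condition, and no source used here says how replicates entered it. No SD, n or p-value can therefore be attached to any value, and no difference has a replicate check. An siRNA lowers an mRNA without deleting the gene, so the GR siRNA cells still hold some GR mRNA.

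Integrins are receptors made of 1 alpha and 1 beta subunit that hold cells to the extracellular matrix or to other cells, and the pairing sets which ligand is bound. Laminins are trimers of an alpha, a beta and a gamma chain that form the sheet of the basement membrane on which endothelium rests. In blood vessels the alpha4 and alpha5 laminin chains, joined to beta1 or beta2 and to gamma1, are the known vascular forms, and the alpha3 and alpha6 integrins are their best known receptors.

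Nr3c1 was 14.4 FPKM with control siRNA, 14.3 with control siRNA and DEX, 5.45 with GR siRNA and 5.32 with GR siRNA and DEX, so the siRNA labels matched the targeted mRNA. The endothelial label was checked on 10 marker genes, and 10 of 10 were expressed. Their summed level was 2386, 2397, 2240 and 2184 FPKM in the same order. With GR siRNA 8 of the 10 were lower without DEX and 5 with DEX, where 52.8% and 51.8% of all genes were. Cldn5 had the largest difference in each DEX state, at 493, 525, 368 and 332 FPKM. The pan-leukocyte gene Ptprc and the T cell gene Cd3e were listed at 0 in every column. Read depth is not given, and the single-fragment values of genes under 0.1 FPKM put the depth of the columns, in the order above and relative to GR siRNA, at 0.671, 0.962, 1 and 0.811. The 36 genes together held 0.188% to 0.203% of a column's summed FPKM.

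The alpha subunits were dominated by 3 genes. Itga6, the laminin-binding alpha6 subunit (chromosome 2, 71745616 to 71858416, plus strand, in mm10), was 187 FPKM with control siRNA, 177 with control siRNA and DEX, 180 with GR siRNA and 173 with GR siRNA and DEX. Itga5, the fibronectin receptor subunit alpha5 (chromosome 15, 103344286 to 103366763, minus strand), was 156, 152, 142 and 136 FPKM in the same order. Itga3, another laminin-binding subunit (chromosome 11, 95044474 to 95076801, minus strand), was 135, 131, 113 and 105 FPKM. These genes kept the order alpha6, alpha5, alpha3 in each column, and together they supplied most of the alpha FPKM: Itga6 held 35.0% to 37.4% of it, Itga5 29.2% to 30.1% and Itga3 22.7% to 26.0%.

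A middle tier of alpha subunits lay about an order of magnitude lower. The collagen-binding subunit Itga1 was 14.9, 13.6, 13.8 and 12.6 FPKM, and Itga2, also collagen-binding, was 10.8, 9.52, 8.84 and 8.26 FPKM. Itgav, the RGD-binding subunit that pairs with several beta subunits, was 8.39, 7.74, 7.17 and 6.34 FPKM. In Itga2, Itgav and Itga9 both GR siRNA columns lay below both control siRNA columns. Itga9, which is known for its role in lymphatic valves, was 4.21, 3.80, 3.34 and 3.09 FPKM. Markers of lymphatic endothelium had the same direction, with a sum of 401, 375, 211 and 210 FPKM over 6 genes, but Lyve1 alone gave 373, 348, 191 and 192 FPKM of it. Flt4 was the one other expressed marker, Prox1, Pdpn and Reln stayed under 1 FPKM, and Ccl21a was at 0 throughout; their part in the Itga9 level was not tested.

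Among beta subunits Itgb1, the common partner of most matrix-binding alphas (chromosome 8, 128685654 to 128733200, plus strand), was the most abundant member of the whole group. Its level was 286, 277, 282 and 281 FPKM, and the columns ranked it between 278 and 307 among all genes. It held 60.5% to 64.4% of the beta FPKM. Itgb4, which pairs with alpha6 and is better known from epithelial hemidesmosomes, was 21.6, 22.5, 25.0 and 24.0 FPKM, and Itga6 exceeded it 7.17 to 8.65 times.

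The laminin chains formed an uneven set. Lamc1, the gamma1 chain (chromosome 1, 153218922 to 153332786, minus strand), was the most abundant chain at 56.2, 52.6, 89.7 and 84.9 FPKM. Lama5 (chromosome 2, 180176373 to 180225859, minus strand) led the alpha chains at 40.0, 41.6, 45.2 and 39.3 FPKM, 5.13 to 7.11 times the level of Lama4. The beta chains were far lower, with Lamb1 at 8.16, 7.79, 10.6 and 8.65 FPKM and Lamb2 at 5.32, 5.52, 7.66 and 6.61 FPKM. Lamc1 therefore stood at 3.96 to 5.57 times the sum of Lamb1 and Lamb2, its partners in the trimer.

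Members below 1 FPKM in every column were Itga8, Itga10 and Itga11 among matrix-binding alphas, the leukocyte alphas Itgad, Itgae, Itgal, Itgam and Itgax, the beta subunits Itgb5, Itgb6 and Itgb8, which are known to pair with alphav, and the laminin chains Lama1, Lama2, Lamb3 and Lamc3. Itgb5, the highest of those beta subunits, was 0.27, 0.32, 0.47 and 0.39 FPKM. Itgad and Itgb8 were above 0 only in the column of control siRNA with DEX, and Itga11 and Lama2 were listed at 0 in at least 1 column. Itga2b, the platelet alphaIIb subunit, passed 1 FPKM only with control siRNA and DEX (0.73, 1.06, 0.85 and 0.88 FPKM). Itgb7, a lymphocyte homing subunit, passed it only in the GR siRNA columns (0.92, 0.88, 1.57 and 1.33 FPKM). Each of these 2 genes entered the comparisons through the columns where it was highest.

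**Figure D1:**
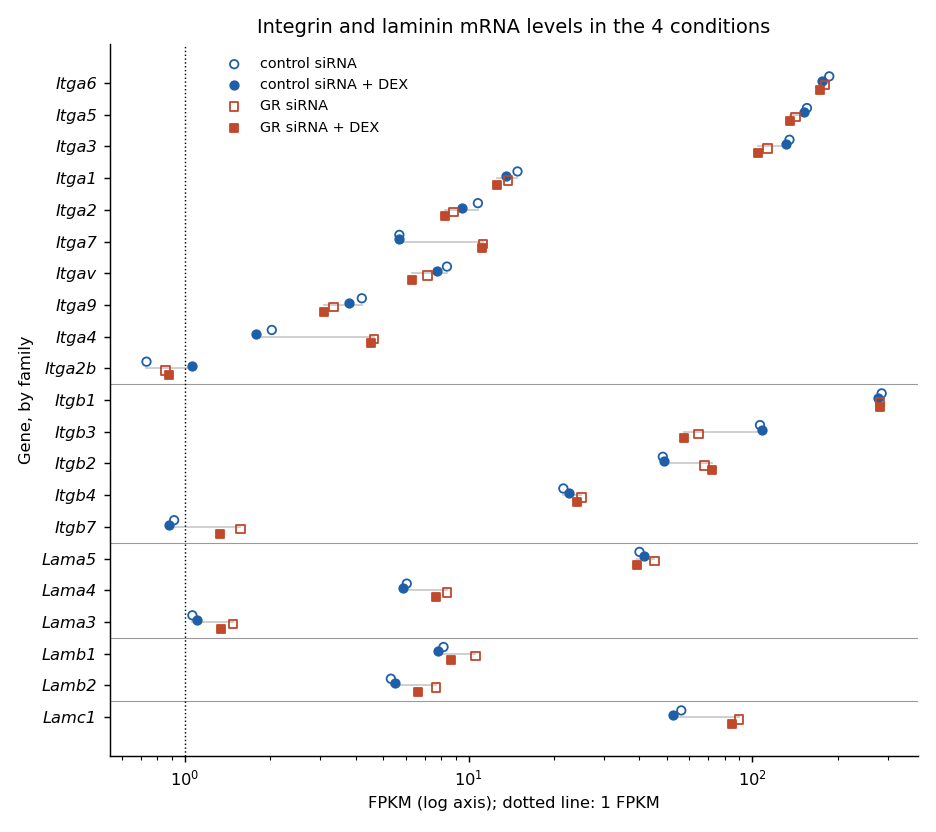
Deposited FPKM on a log axis for the 21 integrin and laminin genes with at least 1 FPKM in any condition, by family; each column gives 1 point with no error, as a circle for control siRNA or a square for GR siRNA, open when DEX was absent and filled when it was present. Itgb1 lies near 280 FPKM in every column, whereas squares lie right of circles for Itga7, Itga4, Itgb2 and Lamc1 and left of circles for Itgb3.

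For some receptors the beta subunit far outnumbered its alpha partners. Itgb2, the beta2 subunit known from leukocytes (chromosome 10, 77530252 to 77565708, plus strand), was 48.4, 48.8, 67.9 and 72.0 FPKM. Its 4 alpha partners, Itgal, Itgam, Itgax and Itgad, summed to 0.715, 0.630, 0.636 and 0.679 FPKM, and Itgb2 was 67.7 to 107 times that sum. Of the leukocyte markers 9 of 10 were in the table and 3 were expressed, namely Cd68, Cd14 and Coro1a, and the list's sum of 181, 166, 199 and 224 FPKM was mostly the lysosomal gene Cd68 at 176, 161, 194 and 218 FPKM. Ptprc, which leukocytes carry, was at 0 in each column. The part of leukocyte RNA in the Itgb2 level was not tested beyond these values, and in bulk RNA fewer cells of a type and less RNA per cell cannot be told apart. Of the 31-mers in Itgb2 transcripts, 2.28% occur in another annotated gene.

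Itgb3 likewise exceeded its partners. Itgav and Itga2b, the alphas it is known to pair with, summed to 9.13, 8.80, 8.02 and 7.22 FPKM, and Itgb3 was 11.7, 12.3, 8.05 and 7.96 times that sum. Over each whole family the balance was closer to even: alpha FPKM was 1.06 to 1.13 times beta FPKM. These are mRNA levels, and subunit protein was not measured.

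**Figure D2:**
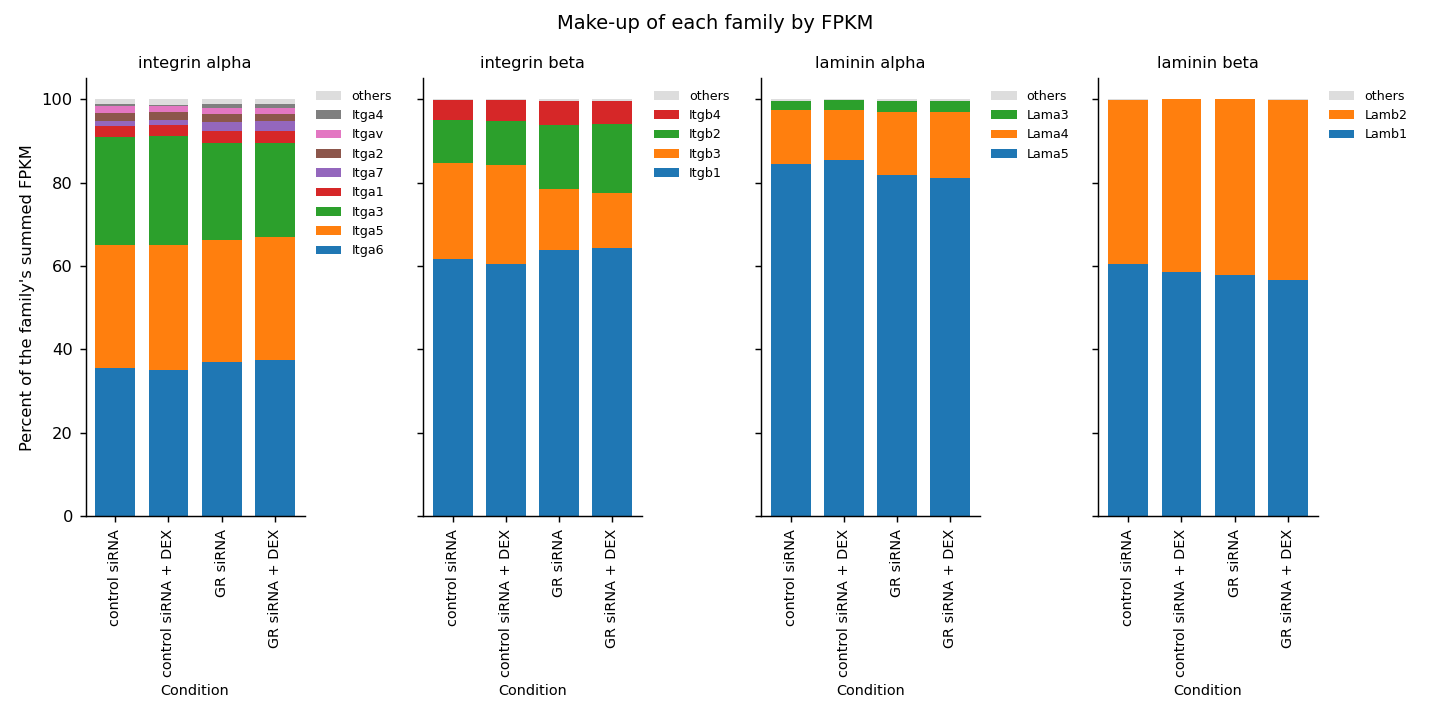
Stacked bars give each gene's percent of the summed FPKM of its family (integrin alpha, integrin beta, laminin alpha and laminin beta) in the 4 conditions; genes under 0.9% in every column are drawn as others. The beta panel shows Itgb3 at 23.0% and 23.6% with control siRNA and at 14.6% and 13.2% with GR siRNA, with Itgb2 at 10.4% and 10.7% against 15.4% and 16.5%.

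The main contrast compares GR siRNA with control siRNA, and it asks which adhesion genes stand at another level when less GR mRNA is present. Itga4, Itga7 and Lamc1 were higher with GR siRNA in both DEX states and Itgb3 was lower in both, each by at least 1.5-fold on the log2(FPKM + 1) scale. Adding 1 before the logarithm shrinks differences of low genes, and 1.5-fold equals 0.585 on that scale. The comparisons without and with DEX share no column. Itgb3 and Lamc1 are among the abundant members. Of the others, Itgb1, Itga6 and Itga5 differed little. Itgb2 differed by 0.48 and 0.55 without and with DEX, and Itga3 by −0.25 and −0.33.

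Without DEX, 3 of 20 measured members were at least 1.5-fold higher and 1 was at least 1.5-fold lower, where 2.36% and 2.54% of 11325 genes were. With DEX, 3 of 21 were higher and 1 lower, against 2.36% and 2.62% of 11344 genes. No member passed 2-fold on that scale, which 1.5% and 1.35% of all genes did. The median difference of the members was 0.19 without DEX and 0.02 with DEX, beside −0.01 for all genes in each case. In both DEX states 10 of the 21 were higher, 8 were lower, and 3 (Itga2b, Itgb1 and Lama5) had opposite signs. Thus 85.7% kept their sign, compared with 78.0% of all 11445 genes. The 10 include Itgb7, which reached 1 FPKM only in the GR siRNA columns, so the filter fixed its sign. The filter also fixed the sign of Itga2b with DEX.

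Itgb3, the beta3 subunit of the vitronectin and fibrinogen receptors (chromosome 11, 104608000 to 104670476, plus strand), was the member that was lowest relative to control. It was 106 FPKM with control siRNA and 108 with control siRNA and DEX, against 64.5 with GR siRNA and 57.5 with GR siRNA and DEX. Both GR siRNA columns lay far below both control columns. GR siRNA cells thus had 0.606 of the control level without DEX and 0.532 of it with DEX, and the log2 differences were −0.71 and −0.90. From the lowest difference upward, Itgb3 ranked 188 among 11325 genes without DEX and 112 among 11344 with DEX. Platelets also carry this subunit, and 7 platelet markers summed to 7.92, 7.85, 11.2 and 12.0 FPKM, nearly all of it from Pf4 and Gp9, the 2 that were expressed; their part in the Itgb3 difference was not tested.

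Itga4 (chromosome 2, 79255426 to 79333123, plus strand) encodes the alpha4 subunit that binds fibronectin and the adhesion molecule VCAM-1. Its level was 2.03 and 1.79 FPKM with control siRNA without and with DEX, and 4.64 and 4.53 FPKM with GR siRNA. The FPKM ratios were 2.29 and 2.54, the highest among expressed members, with log2 differences of 0.90 and 0.99. Part of its exons (8.04% of exonic bases) overlaps Cerkl on the other strand, and no source used here states the strand setting of the counting. Its close relative Itga9 went the other way, with log2 differences of −0.26 and −0.23.

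Itga7, a laminin-binding subunit best known from muscle (chromosome 10, 128933818 to 128958282, plus strand), was 5.70 and 5.67 FPKM with control siRNA and 11.2 FPKM in both GR siRNA columns. Its ratio was 1.97 in each DEX state and its log2 difference 0.87 in each, so the pair of DEX states gave nearly the same value. The other laminin-binding alphas did not share that direction: Itga3 differed by −0.25 and −0.33 and Itga6 by −0.05 and −0.03, and Itga6 took the opposite sign without DEX after upper quartile rescaling. Itga7 remained a small part of the alpha FPKM, at 1.08% and 1.12% with control siRNA and 2.31% and 2.42% with GR siRNA.

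Most expressed laminin chains stood higher with GR siRNA. Of 6 expressed chains 6 were higher without DEX (median 0.38) and 5 were higher with DEX (median 0.19), where 47.2% and 48.2% of all genes were higher. Lamc1 differed by 0.66 and 0.68, with FPKM ratios of 1.60 and 1.61. Of 10 lung epithelial markers 2 were expressed, and the list summed to 3.72, 4.23, 3.67 and 3.87 FPKM.

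The remaining chains stayed under 1.5-fold, with smaller differences in the presence of DEX. Lama4, the alpha chain of endothelial basement membranes, was 6.06 and 5.85 FPKM with control siRNA and 8.40 and 7.67 FPKM with GR siRNA (differences 0.41 and 0.34). Lamb2 differed by 0.45 and 0.22, Lamb1 by 0.34 and 0.13, and Lama3 by 0.27 and 0.15. Lama5 was the exception to the common direction, at 0.17 without DEX and −0.08 with DEX. It held most of the alpha chain FPKM. The alpha chains summed to 47.3 and 48.7 FPKM with control siRNA without and with DEX, and to 55.2 and 48.5 FPKM with GR siRNA. The ratio of Lama5 to Lama4 was 6.61 and 7.11 with control siRNA and 5.38 and 5.13 with GR siRNA.

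Fibroblasts and mural cells also make matrix, and the summed level of their markers was higher in the GR siRNA columns. Of 10 such markers 3 were expressed, and the list summed to 15.4, 13.9, 20.1 and 18.5 FPKM. Dcn, a fibroblast proteoglycan, was 0.39, 0.30, 1.99 and 2.73 FPKM, Acta2 was 5.65, 5.60, 8.82 and 7.71 FPKM, and the smooth muscle gene Tagln went the other way at 8.76, 7.48, 7.87 and 7.04 FPKM. Dcn passed 1 FPKM only in the GR siRNA columns, and the pericyte gene Rgs5 was at 0 throughout. Their part in the laminin differences was not tested.

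**Figure D3:**
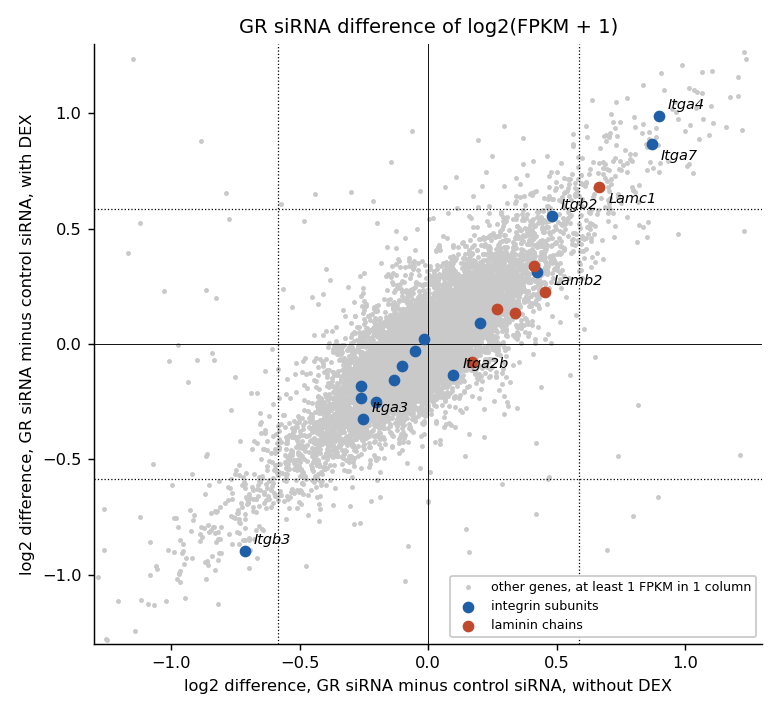
Difference of log2(FPKM + 1), GR siRNA minus control siRNA, without DEX on the x axis and with DEX on the y axis; blue points are integrin subunits, red points laminin chains, grey points other genes with at least 1 FPKM in 1 column, and dotted lines mark 1.5-fold. Itga4, Itga7 and Lamc1 lie beyond both dotted lines at the upper right and Itgb3 at the lower left; 163 other genes fall outside the axes, which end at 1.3.

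Integrin alphas other than Itga4 and Itga7 stood slightly lower with GR siRNA. Of 9 alphas measured without DEX 7 were lower, and of 10 with DEX 8 were lower, with medians of −0.13 and −0.15, where 52.8% and 51.8% of all genes were lower. The alpha added with DEX was Itga2b, which reached 1 FPKM only with control siRNA and DEX. Its lower sign there was therefore fixed by the filter. Itga3, Itga2, Itgav and Itga9 had the largest of these, between −0.18 and −0.33, and Itga5 differed by −0.13 and −0.16. The count without DEX was 6 lower of 9 after upper quartile rescaling, in which 61.2% of all genes were higher.

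Beta subunits other than Itgb3 were level or higher. Itgb2 differed by 0.48 and 0.55, both under 1.5-fold, and both GR siRNA columns lay above both control columns. Itgb7, which reached 1 FPKM only in the GR siRNA columns, differed by 0.42 and 0.31 and Itgb4 by 0.20 and 0.09. Itgb1 differed by −0.02 and 0.02, and its sign without DEX turned under both rescalings. Among members below 1 FPKM, Itgal, the alphaL partner of Itgb2, was 0.15 and 0.17 FPKM with control siRNA and 0.39 and 0.41 FPKM with GR siRNA, whereas Itgax was 0.55 and 0.45 against 0.22 and 0.25 FPKM; no fold is given at these levels.

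Short sequence matches in the 3′ untranslated regions were examined next, for the heptamers TTCTGAA and TCTGAAA, which overlap in 6 bases and were taken from earlier results of these data. The transcript strand of the longest annotated 3′ untranslated region was searched for both (GENCODE release M21, mm10). A match was present in 32.3% of 10304 genes tested without DEX and in 9 of 20 members. The sites below are shown because Itgb3, the one member past 1.5-fold on the low side, holds 2 of them, the lower alphas Itga5, Itgav and Itga9 hold them while Itga2 and Itga3, also lower, hold none, and Itga4, which had the highest difference, holds 1; capitals mark the heptamer, or both heptamers where they overlap. Not all sites are shown. Itga1, Itga5 and Itgav, which stayed under 1.5-fold, also hold 2 sites each. Only 1 is printed for Itga5 and for Itgav, and none for Itga1. Sequences run 5′ to 3′ on the transcript strand, 30 bases each, and come from the GENCODE transcripts.

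Itgb3 at chr11:104669133-104669162, plus strand: ctattctttttTTCTGAAAgacagggtctc

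Itgb3 at chr11:104670335-104670364, plus strand: agagacagtcaTTCTGAAgctgcccacagc

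Itga5 at chr15:103344968-103344997, minus strand: tttggagacttTTCTGAAAtcaacttggaa

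Itgav at chr2:83805771-83805800, plus strand: ttctgattgtgTTCTGAAtgactacggaag

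Itga9 at chr9:118900911-118900940, plus strand: tctgcagtcacTTCTGAAtcacttgcactg

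Itga4 at chr2:79329717-79329746, plus strand: ctagttctgcaTCTGAAAaccatcctctca

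Of the 9 members with a heptamer (Itga1, Itga4, Itga5, Itga6, Itga9, Itgav, Itgb1, Itgb3 and Lama5), 7 were lower with GR siRNA without DEX, and 7 were lower with DEX. Among measured members without one, 2 of 11 and 3 of 12 were lower. Over all genes tested without DEX the corresponding shares were 61.9% with a heptamer and 48.1% without, and with DEX 61.4% and 46.9%. Since the heptamers came from earlier results on these same columns, the shares are a description and no independent evidence. Genes with a heptamer also have longer 3′ untranslated regions, with a median of 2424 against 992 bases over all genes tested without DEX and 3581 against 350 bases in the members. No source used here gives the siRNA sequence, and the part of these sites, or of length, in the differences was not tested. Lamc1, Itga7 and Itgb2, which stood higher, hold neither heptamer in these regions.

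The second contrast sets DEX beside its absence in either siRNA arm, and asks which members stand at another level with added steroid. No member reached 1.5-fold in either arm. In control siRNA cells 0 of 20 were called in either direction, where 0.686% of 11227 genes were at least 1.5-fold higher, 0.392% at least 1.5-fold lower and 0.837% past 2-fold. In GR siRNA cells 0 of 20 were called, against 0.531%, 0.645% and 0.875% of 11310 genes. The members' differences ran from −0.16 (Itga2) to 0.25 (Itga2b) in control siRNA cells and from −0.26 (Lamb1) to 0.08 (Itgb2) in GR siRNA cells. Itga2b entered the comparison in control siRNA cells only through the DEX column, where it was highest.

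Small DEX differences were mostly negative. In GR siRNA cells 19 of 20 members were lower with DEX (median −0.09), where 51.9% of all genes were lower; after upper quartile rescaling it was 18 of 20. In control siRNA cells 13 of 20 were lower (median −0.04), but this direction rested on the scaling, since upper quartile rescaling left 5 of 20 lower and raised the median of all genes to 0.08. Itga1, Itga2, Itga4, Itgav and Itga9 were lower with DEX in both arms under either scaling. Itga2 was 10.8 without and 9.52 FPKM with DEX in control siRNA cells, and 8.84 and 8.26 FPKM in GR siRNA cells. The log2 differences in these arms were −0.10 and −0.15 for Itgav and −0.13 and −0.12 for Itga1.

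**Figure D4:**
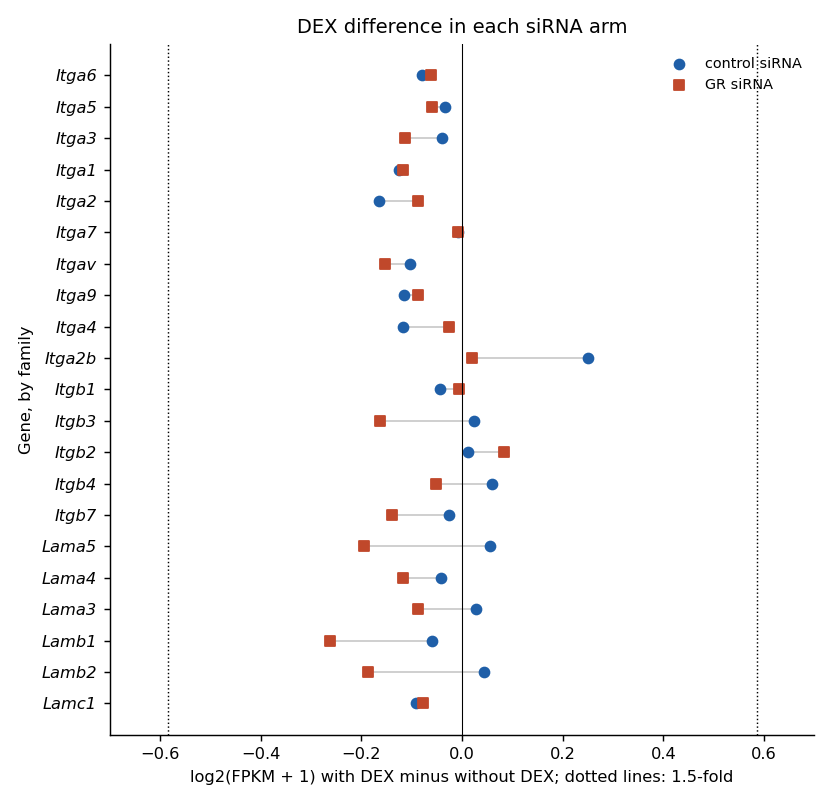
Difference of log2(FPKM + 1), with DEX minus without DEX, for the 21 expressed members; blue circles are control siRNA cells, red squares GR siRNA cells, and dotted lines mark 1.5-fold. Every point lies inside the dotted lines, with Itga2b at 0.25 the highest in control siRNA cells and Lamb1 at −0.26 the lowest in GR siRNA cells.

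The difference of differences, which is the DEX difference in GR siRNA cells minus that in control siRNA cells, was small for the 21 members. None reached 1.5-fold, against 0.751% of 11445 genes higher and 0.961% lower at that level and 1.29% past 2-fold. Itga4 had the highest value at 0.09. At the other end stood Lama5 at −0.25, Lamb2 and Itga2b at −0.23, Lamb1 at −0.20 and Itgb3 at −0.19. Itga2b reached 1 FPKM only with control siRNA and DEX, a column that enters this difference with a minus sign. The filter therefore favoured its negative value. Of 6 laminin chains 5 were negative, and 6 were after upper quartile rescaling, which moved all genes to a median of −0.08.

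Genes around the integrins and laminins were read from 3 lists. These lists hold proteins that bind integrin tails or join complexes there (cytoplasmic partners), proteins that join laminin in the basement membrane, and integrin ligands. The basement membrane list had the direction of the laminins. Of 14 measured partners 13 were higher with GR siRNA without DEX and 13 with DEX, with medians of 0.37 and 0.22, and 2 and 0 were past 1.5-fold, with none that much lower. Of all genes 47.2% and 48.2% were higher in these comparisons, and 2.36% were past 1.5-fold higher in each. Nid2, a nidogen that links laminin to collagen IV, was 1.88, 2.25, 3.59 and 3.44 FPKM (differences 0.68 and 0.45). Col15a1, a collagen of basement membrane zones, was 1.92, 1.44, 2.89 and 2.48 FPKM, and Lgals3bp, a secreted glycoprotein, was 78.5, 73.9, 107 and 108 FPKM. The one lower gene was Bcam, a cell surface receptor for the laminin alpha5 chain, at 101, 103, 71.6 and 75.8 FPKM (differences −0.49 and −0.44). The second gene past 1.5-fold was Ntn4, a netrin that binds laminin, named after its values were seen, at 0.60 without DEX.

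The cytoplasmic partners were split between the directions. Of 25 measured genes 13 were higher without DEX and 17 with DEX, with medians of 0.02 and 0.07, and none passed 1.5-fold in either direction. The shares of all genes given for the basement membrane list apply to this list and to the ligands, with 2.54% and 2.62% past 1.5-fold lower. Paxillin (Pxn), an adaptor of focal adhesions, was 64.4, 65.7, 50.9 and 46.3 FPKM, and Lims1, part of the complex around integrin-linked kinase, was 112, 112, 87.5 and 92.3 FPKM. Src, a tyrosine kinase of these sites, was 24.6, 24.2, 20.4 and 20.0 FPKM. Fermt3, a kindlin known from blood cells that activates beta2 and beta3 integrins, was higher with GR siRNA, at 5.08, 4.36, 6.29 and 6.42 FPKM.

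Integrin ligands were also mixed: 10 of 17 were higher in each DEX state, with medians of 0.03 and 0.04, and none passed 1.5-fold. Fibronectin (Fn1), ligand of the alpha5 and alpha4 receptors, was 48.6, 43.3, 65.7 and 54.5 FPKM (differences 0.43 and 0.32). The microfibril gene Fbn1 was 0.60, 0.42, 1.33 and 1.07 FPKM (0.54 in each DEX state). It is counted among the 10, but reached 1 FPKM only in the GR siRNA columns and entered through them. Mfge8, an RGD-bearing bridge to phosphatidylserine, was 55.0, 58.6, 71.9 and 69.0 FPKM, and Emilin1, a ligand of alpha4 and alpha9 receptors, was 70.9, 75.8, 64.1 and 57.7 FPKM. Fgg, Fgb and Fga, which encode the chains of fibrinogen, were at 0 in every column.

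**Figure D5:**
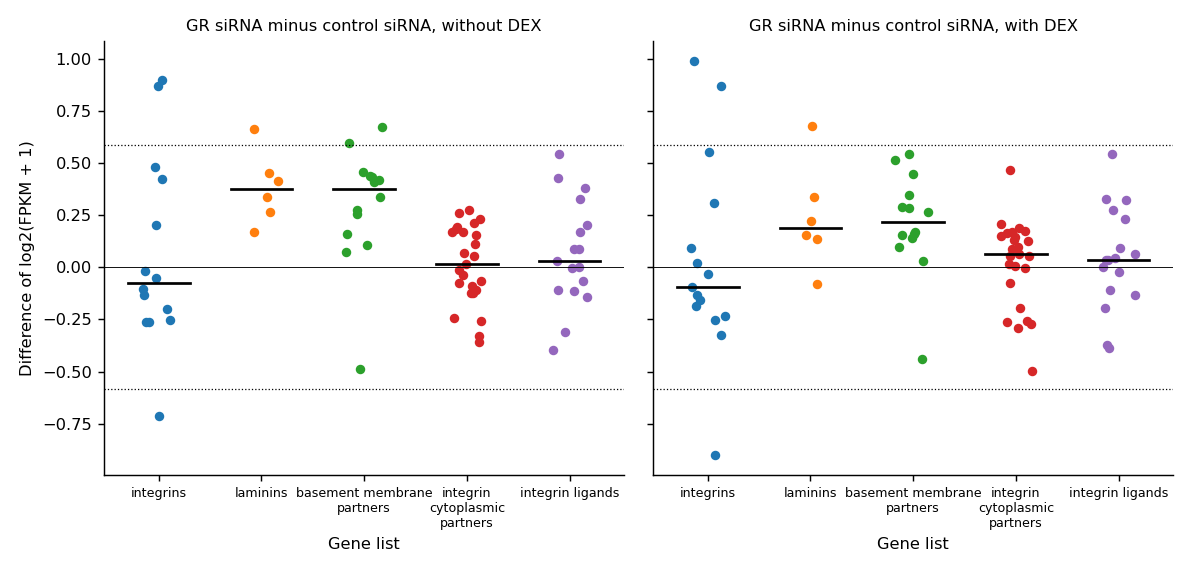
Difference of log2(FPKM + 1), GR siRNA minus control siRNA, without DEX (left) and with DEX (right), 1 point per gene with at least 1 FPKM in 1 of the 2 columns; black bars are list medians and dotted lines 1.5-fold, with points spread sideways for legibility. Laminins and their basement membrane partners have medians of 0.38 and 0.37 on the left and 0.19 and 0.22 on the right. The list of cytoplasmic partners lies around 0.02 and 0.07.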

How the data were processed

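RNA from 4 samples was analysed, 1 per condition, in 1 table of 23997 genes. The authors deposited FPKM; TopHat2 (an aligner), Cuffdiff (which estimates FPKM) and mm10 are named per the submitters' processing notes. Versions, annotation, strand setting and how replicates were combined: not given in the sources used here. Read counts cannot be had from FPKM, so no count model, interval or detection limit was computed.

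Differences were taken on log2(FPKM + 1) over genes that reached 1 FPKM in any column of that comparison (all 4 for the difference of differences). Genes were counted at 1.5-fold and 2-fold, with no test; limma was planned only for replicate columns. Alternatives were a pseudocount of 0.1, no filter, a minimum of 5 FPKM, upper quartile rescaling and median ratio rescaling. The counting step was tested on simulated data. All 36 members matched GENCODE M21 by symbol; the 21 expressed ones share at most 8.85% of their 31-mers with other genes.

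The members and lists were chosen with earlier results of these data known. The symbol rule takes 37 genes, of which 1 is not reported here and enters no count of members. Every expressed member is named, with the 4 members of each partner list that differed most on average between siRNAs, Nr3c1, and markers as lists. Of 29 cytoplasmic partner genes 28 were in the table, and of 15 basement membrane genes 15. Of 27 ligand symbols, 2 of them newer names of listed genes, 25 were. Work used Python 3.11.15, pandas 2.3.3 and NumPy 2.4.6.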

Additional observations from a re-analysis of the deposited data

How the results depend on the processing

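With 1 column per condition and no read depth, the error of any difference is unknown, and low genes such as Itga4, Itga2b and Itgb7 are the least precise. The 1.5-fold calls of Itga4, Itga7, Itgb3 and Lamc1 held under every alternative that kept the gene; Itga4 is left out by a minimum of 5 FPKM. The members' median without DEX was 0.0020 with no filter and 0.077 at 5 FPKM. With a pseudocount of 0.1, Itgb7 passed 1.5-fold without DEX (0.72), and 2 basement membrane partners were higher with DEX. With that pseudocount 1 integrin ligand, Fbn1, was higher in each DEX state. Itgb7 and Fbn1 reached 1 FPKM only in the GR siRNA columns, so the filter fixed their direction. Upper quartile rescaling turned the sign of 8 members for DEX in control siRNA cells, of 2 for GR siRNA without DEX, of 1 for DEX in GR siRNA cells and of 7 for the difference of differences, and no 1.5-fold call. Median ratio rescaling turned the sign of 1 member, Itgb1, without DEX. No paired analysis was possible because each condition has 1 column.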

Other observations

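The partner lists were also read for DEX. No partner gene of the 3 lists passed 1.5-fold in either arm. Of all genes 0.686% were that much higher and 0.392% lower in control siRNA cells, and 0.531% and 0.645% in GR siRNA cells. The basement membrane list had a median of −0.02 in control siRNA cells and −0.11 in GR siRNA cells. Among integrin ligands the medians were −0.04 and −0.11, beside −0.005 for all genes in each arm. After upper quartile rescaling the control siRNA medians were 0.07 for the basement membrane list, 0.04 for the ligands and 0.08 for all genes. Cyr61 and Ctgf, secreted matricellular proteins that bind integrins, were chosen after their values were seen. Cyr61 was 54.4 FPKM with control siRNA, 41.7 with control siRNA and DEX, 41.1 with GR siRNA and 38.0 with GR siRNA and DEX. Ctgf was 41.2, 33.5, 33.0 and 29.1 FPKM in that order. For both genes the control siRNA column without DEX was the highest of the 4. The DEX difference was −0.37 for Cyr61 and −0.29 for Ctgf in control siRNA cells, and −0.11 and −0.17 in GR siRNA cells. Thbs1, another gene of the ligand list, did not share this gap between arms. It was 14.9, 11.8, 14.9 and 11.6 FPKM, with DEX differences of −0.32 in control siRNA cells and −0.34 in GR siRNA cells. The gap between arms was not tested.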
